A study of Homo sapiens with 9 samples.

Results

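Heat shock proteins and co-chaperones were represented by 94 of the 30968 probes in the deposited table, for 78 of 15240 gene symbols. They were taken by gene symbol alone, as the HSPA, HSPB, HSP90 and DNAJ families, HSPD1, HSPE1, HSPH1, BAG1 to BAG6, HSF1, HSF2, STIP1, AHSA1, FKBP4, the cytosolic chaperonin (TCP1 and CCT2 to CCT8) and prefoldin (PFDN1 to PFDN6). The symbols, not the ratios, set which probes belong, although results of these data were already known when the families were picked. The arrays compared RNA of HaCaT cells exposed to ELF-EMF (50 Hz, 1 mT) for 1 h with RNA of non-exposed cells of the same line. HaCaT is a spontaneously immortalized human keratinocyte line, so both groups come from 1 cell line. Before seeding, all cells had been serum-starved and then given serum again, and controls stood in an identical incubator without the field. Human OneArray slides with 2 colours were used, 9 in all. For each of the 3 biological samples (called A, B, C) a pair of slides had exposed RNA in Cy5, and 1 more slide, the dye swap, had it in Cy3. Nothing in the labels says whether the samples came from separate cultures. The p-values rest on the spread between these 3 samples, which the first fit pooled over all its probes. The number of samples limits the precision.

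Chaperones hold other proteins in a foldable state. HSP70 proteins (HSPA genes) bind exposed hydrophobic stretches in an ATP cycle that J proteins (DNAJ genes) start and that nucleotide exchange factors such as BAG proteins and HSPH1 reset. HSP90 takes over partly folded clients with co-chaperones such as STIP1, AHSA1 and FKBP4. The chaperonins are closed folding chambers, HSPD1 with its lid HSPE1 in mitochondria and the CCT ring in the cytosol, which prefoldin supplies with actin and tubulin chains. When unfolded protein accumulates, the transcription factor HSF1 binds repeats of the heat shock element in the promoters of the inducible members, while the constitutive ones are made in unstressed cells.

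All values below are log2 ratios of exposed over non-exposed cells, with the dye swaps turned to this direction, so a positive value is a higher signal in exposed cells. The table holds ratios only and no intensities, so no level of a gene in either group and no signal over background is known, and many probes have no value on an array. An array gave values for 1164 to 7250 probes, and the array medians lay between -0.38 and 0.31. The second array of sample C stood apart. As deposited, its ratios correlated with the 3 dye swaps (Pearson r across probes of 0.36 to 0.42) and little with the 5 arrays of its own dye orientation (-0.19 to 0.10). Those 5 correlated with each other at 0.06 to 0.48. Its label was kept, and the shares above the array median and some other results are given with and without it. Of 8 keratinocyte markers, 7 had a probe and all 7 had a value on at least 1 array, while of 5 markers of other cell types only COL1A2 did, on 1 array. Only 4 of the keratinocyte markers had values on at least 6 arrays, and TP63 had a value on 1.

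Chaperone probes were measured more often than others. A value on at least 1 array was held by 57 of the 94 probes (60.6%), for 48 genes, against 40.6% of the 17397 probes with a gene symbol and 33.0% of all probes. On 6 or more arrays the share was 27.7% (26 probes) of the chaperone probes, against 6.69% of the probes with a symbol. Of the 570 probes with a value in both dye orientations in all 3 biological samples, 4 were members, and these entered the first fit. HSPA5, HSPA6, HSPA9 and HSPA2 were among the 37 probes with no value on any array. HSPA1A, HSP90AA1 and HSP90AB1 were not analysed here.

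The heat shock element was looked for in the promoters of the members, in RefSeq windows of GRCh38.p14 that run from 250 bases before to 50 bases after a gene's start. The letters searched were GAANNTTC or TTCNNGAA, each of which reads as itself on the other strand, and as a longer form GAANNTTCNNGAA or TTCNNGAANNTTC, which contains matches of the shorter form. Windows were found for 67 of the 78 genes. The shorter form stood in 23 of 88 member windows (26.1%) and in 4737 of all 35116 windows (13.5%). The longer form stood in 4 member windows, those of HSPA6, HSPA8, HSPD1 and DNAJB6 (4.55%), and in 0.490% of all. These matches are letters in a window and not measured binding. A selection is shown from the 15 genes with a value on the arrays whose windows held the shorter form. A further match of DNAJB1, 47 bases before its start, is not shown. The windows of HSPH1, BAG3, HSPE1 and HSPA4 held none, but other forms of the element and bases outside the windows were not searched. Whether a match goes with the ratios was not tested. Each is written in the direction of its gene, with the matched letters in capitals.
HSPA8, chr11:123062342-123062378, minus strand: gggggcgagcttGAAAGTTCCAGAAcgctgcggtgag
HSPA8, chr11:123062167-123062203, minus strand: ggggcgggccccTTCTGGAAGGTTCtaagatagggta
HSPD1, chr2:197500056-197500090, minus strand: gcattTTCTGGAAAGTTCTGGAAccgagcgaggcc
DNAJB6, chr7:157336861-157336897, plus strand: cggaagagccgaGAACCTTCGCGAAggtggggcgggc
DNAJB1, chr19:14518455-14518486, minus strand: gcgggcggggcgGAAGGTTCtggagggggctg
HSPB1, chr7:76302479-76302510, plus strand: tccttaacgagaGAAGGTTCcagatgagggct
The capitals begin 230 and 55 bases before the start of HSPA8, 245 before 1 of the starts of HSPD1, 131 before that of DNAJB6, 77 before that of DNAJB1 and 182 before that of HSPB1.

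Across the 570 tested probes, 22 passed at an adjusted p under 0.05 and all 22 were lower in exposed cells (3.86%), while 20.4% passed at an unadjusted p under 0.05. None of the 4 members tested (HSPA4, HSPA8 probe 1, DNAJC7 and BAG3) passed after adjustment by limma, and 1, HSPA4, did at an unadjusted p of 0.0081. The members' median was -0.06, and that of all tested probes -0.12. Of the 46 members with a value in at least 2 samples, again 0 passed in a limma fit of 5688 probes, where a sample with 1 orientation is not dye-balanced and 0 passed in all, and 4 had an unadjusted p under 0.05 (DNAJB1, DNAJB4, DNAJC10 and PFDN5), where 3.8% of all probes did. The smallest adjusted p among the members was 0.88. Their median was 0.01 against -0.09 for all 5688, and 32 of the 46 lay above the latter value.

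Among the inducible members, the measured probes of HSPH1, BAG3, DNAJB1 and HSP90AA2 averaged above 0 in exposed over non-exposed cells and HSPB1 did not. None of them passed a test, and BAG3 was the only one with the values for the first fit. HSPH1, the HSP110 exchange factor of HSP70, has 2 probes. HSPH1 probe 1 read 0.44, 0.63 and 0.78 on the arrays of sample A (the third being the dye swap), 0.19, -0.18 and 0.31 in sample B and 0.08 on the first array of sample C, with no value on the other arrays of C. HSPH1 probe 2 read 0.63 and 0.57 in sample A, 0.22, 0.66 and 0.20 in sample B, and 0.18 and -0.23 in sample C. Each probe was above 0 on all its arrays but 1, and both stood highest in sample A. The means over samples were 0.30 ± 0.31 for probe 1 and 0.30 ± 0.31 for probe 2 (SD, n = 3 each), and 0.12 and 0.15 without sample A.

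BAG3, the exchange factor that links HSP70 to selective autophagy, read 0.35, 0.57 and 0.24 in sample A, 0.11, 0.14 and a value at 0 in sample B, and 0.12, -0.16 and 0.02 in sample C. It was above 0 on 7 of 9 arrays and lowest on the second array of sample C. Its mean was 0.14 ± 0.19 (SD, n = 3), with an adjusted p of 0.66 (limma, Benjamini-Hochberg over 570 probes), so the difference was within the spread of the samples. DNAJB1, the stress-induced J protein of HSP70, had only 2 values, 0.63 in sample A and 0.60 in sample C, both on arrays of the Cy5 orientation.

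HSP90AA2 read 0.45 and 0.29 in sample A, 0.32 and 0.02 in sample B, and 0.37 and -0.31 in sample C, with no dye swap among them, and averaged 0.19 ± 0.17 (SD, n = 3). It is listed in RefSeq as a pseudogene closely related to HSP90AA1, so a signal from HSP90AA1 cannot be told apart from its own. HSPB1, the small heat shock protein HSP27 that is plentiful in keratinocytes, lay between -0.01 and 0.13 on 6 arrays and at -0.75 on the dye swap of sample C. Its mean was -0.08 ± 0.21 (SD, n = 3), and 0.04 without sample C. HSPB1 was thus near 0 on all but 1 of its arrays.

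**Figure D1:**
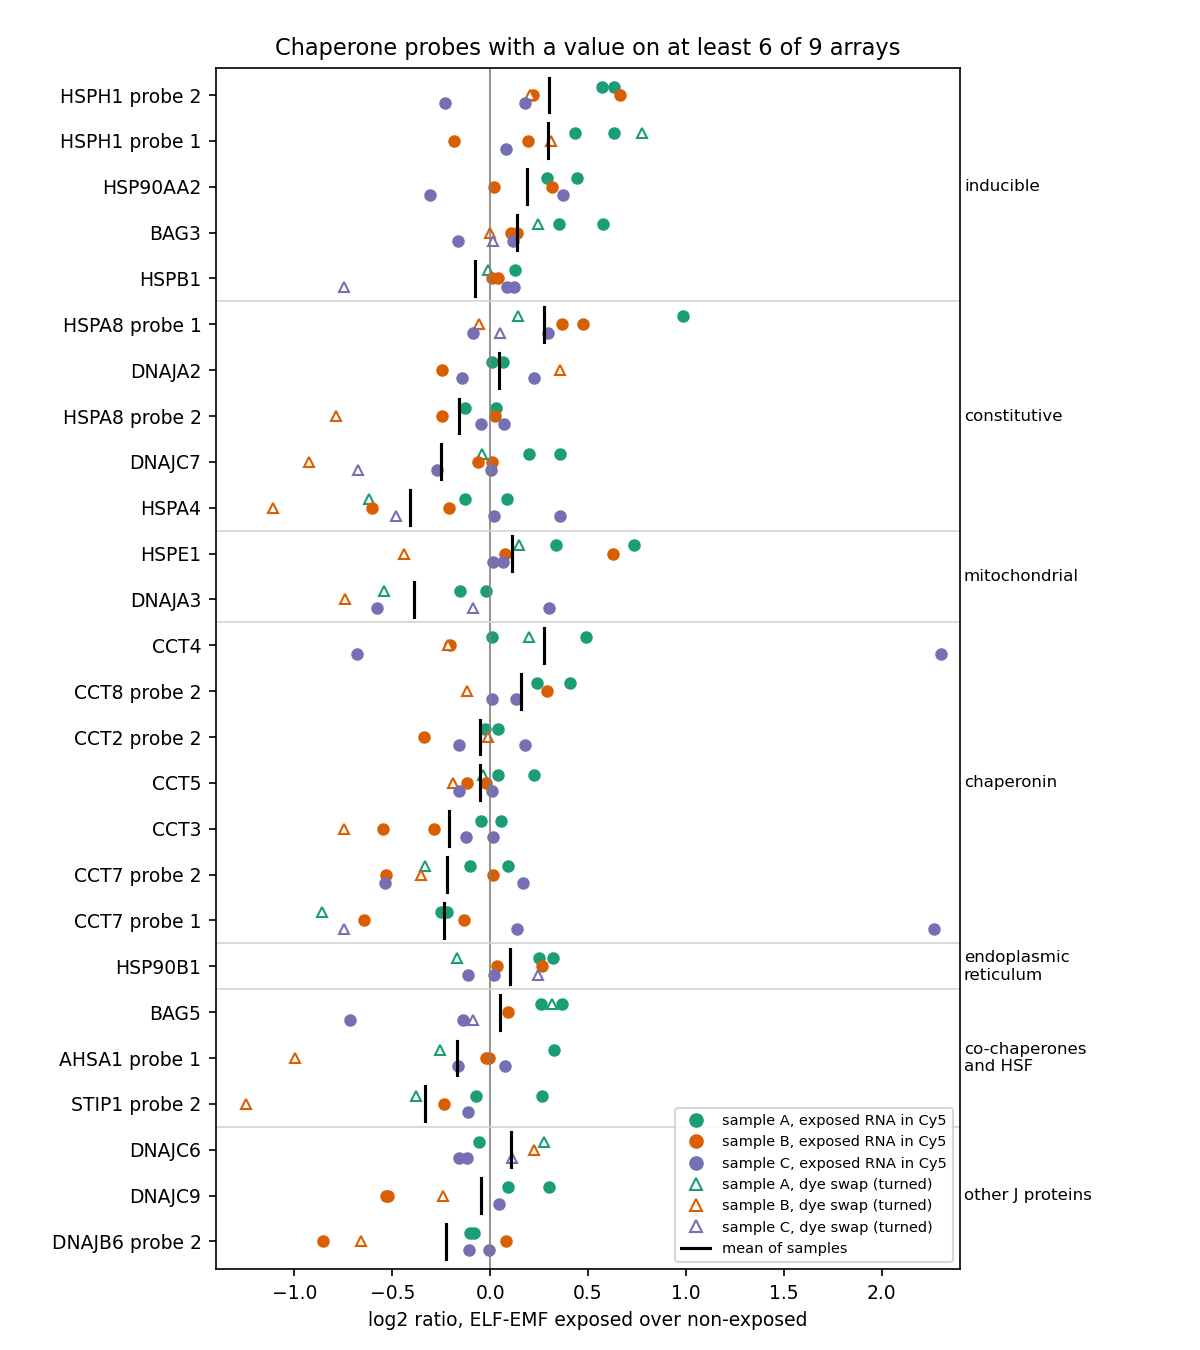
Log2 ratio of exposed over non-exposed cells on each array for chaperone members with values on many arrays, by class, with arrays of exposed RNA in Cy5 and turned dye swaps marked separately. The HSPH1 probes lie above 0 on all their arrays but 1 each, while HSPA4 reaches -1.11 on the dye swap of sample B and CCT4 and CCT7 probe 1 reach 2.31 and 2.27 on the first array of sample C.

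The constitutive members did not move together. HSPA8, the HSC70 protein that does most folding work in unstressed cells, was above 0 by one probe and below it by the other. HSPA4, a relative of HSPH1 in the HSP110 group, was below 0 in all 3 samples. Neither passed the test.

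HSPA4 read -0.13, 0.09 and -0.62 in sample A, -0.21, -0.60 and -1.11 in sample B, and 0.02, 0.36 and -0.48 in sample C, the third value of each being the dye swap. The lowest array of each sample was its dye swap. The dye-balanced values were -0.32 in sample A, -0.76 in B and -0.15 in C, with a mean of -0.41 ± 0.32 (SD, n = 3), a standard error of 0.15 and an adjusted p of 0.10 (limma). Against the median of the 570 probes its mean lay at -0.28.

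HSPA8 probe 1 read 0.99 and 0.14 in sample A, 0.37, 0.48 and -0.06 in sample B, and 0.30, -0.09 and 0.05 in sample C. It was above 0 on 6 of 8 arrays. Its mean was 0.27 ± 0.26 (SD, n = 3) with an adjusted p of 0.29 (limma). HSPA8 probe 2 read 0.03 and -0.13 in sample A, 0.03, -0.25 and -0.78 in sample B, and -0.05 and 0.07 in sample C, with a mean of -0.16 ± 0.25 (SD, n = 3). On the first array of sample A the probes of HSPA8 stood at 0.99 and 0.03. The direction of HSPA8 therefore depended on the probe.

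DNAJC7, a J protein that binds both HSP70 and HSP90, read 0.20, 0.36 and -0.04 in sample A, 0.01, -0.06 and -0.92 in sample B, and -0.27, 0.0029 and -0.67 in sample C. Its dye swaps were again its lowest arrays in each sample. The mean was -0.25 ± 0.32 (SD, n = 3), with an adjusted p of 0.35 (limma). DNAJA2, a cytosolic partner of HSPA8, averaged 0.04 ± 0.01 (SD, n = 3) over samples, although its arrays ran between -0.24 and 0.36.

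The mitochondrial members were thinly measured. HSPE1, the lid of the mitochondrial chaperonin, read 0.74, 0.34 and 0.15 in sample A, 0.63, 0.08 and -0.44 in sample B, and 0.07 and 0.02 in sample C. It was above 0 on 7 of 8 arrays and below it only on the dye swap of sample B. Its mean was 0.11 ± 0.20 (SD, n = 3), and -0.0016 without sample A. HSPD1, the chamber itself, had 1 value, -0.04 in sample A, so the chamber and its lid could not be compared.

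DNAJA3, the J protein of the mitochondrial HSP70, read -0.02, -0.16 and -0.54 in sample A, -0.74 on the dye swap of sample B, and -0.58, 0.30 and -0.09 in sample C. It was below 0 on all arrays but the second of sample C, and its mean was -0.39 ± 0.32 (SD, n = 3). DNAJC11 probe 2, for a protein of the inner membrane organizing system, averaged -0.52 ± 0.71 (SD, n = 3), with values between -1.30 and 0.09. The spread of DNAJC11 probe 2 was larger than its mean.

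The chaperonin had a value on at least 1 array for 11 of its 12 probes and on at least 6 arrays for 7, and its subunits lay around 0. The means of its probes lay between -0.24 and 0.28. Of these, 3 of 11 were above 0 and 7 of 11 above the median of all 5688 probes, -0.09. CCT5 averaged -0.05 ± 0.09 (SD, n = 3) and ran between -0.19 and 0.23 on its 8 arrays. CCT3 averaged -0.21 ± 0.32, CCT7 probe 2 -0.22 ± 0.07 and CCT8 probe 2 0.16 ± 0.14 (SD, n = 3 each). CCT2 probe 2 averaged -0.05 ± 0.11 (SD, n = 3), with values between -0.34 and 0.18. No difference between subunits was tested.

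A pair of chaperonin probes had 1 value far from the rest, on the same array. On the first array of sample C, CCT4 read 2.31 and CCT7 probe 1 read 2.27. On its other 6 arrays CCT4 lay between -0.68 and 0.49, and CCT7 probe 1 lay between -0.86 and 0.14 on its other 7. CCT7 probe 2, for the same gene, read -0.54 on that array. CCT7 probe 1 averaged -0.24 ± 0.41 (SD, n = 3). The mean of CCT4 was 0.28 ± 0.51 (SD, n = 3), 0.01 without sample C and 0.77 without the second array of C.

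Of the prefoldin subunits, PFDN1, PFDN2 and PFDN4 probe 1 averaged 0.19, 0.20 and 0.22 over 2 samples each. PFDN5 averaged -0.64 ± 0.64 (SD, n = 3) and reached -2.38 on the second array of sample B. PFDN1, PFDN2, PFDN4 and PFDN5 had no value on any dye swap, so their values are not dye-balanced.

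In the endoplasmic reticulum, HSP90B1 (GRP94), which folds secreted and membrane proteins, read 0.25, 0.32 and -0.17 in sample A, 0.27 and 0.03 in sample B, and -0.11, 0.02 and 0.24 in sample C. Its mean of 0.10 ± 0.05 (SD, n = 3) came from sample values of 0.06, 0.15 and 0.10, the one of B from 1 orientation only. DNAJC10, a J protein with disulfide reductase activity, had only 0.46 in sample A and 1.01 in sample C, both on arrays of the Cy5 orientation and so not dye-balanced.

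Among HSP90 co-chaperones, STIP1 probe 2, the adaptor between HSP70 and HSP90, averaged -0.33 ± 0.36 with -1.25 on the dye swap of sample B. FKBP4, an immunophilin of steroid receptor complexes, averaged -0.29 ± 0.15, and AHSA1 probe 1, an activator of the HSP90 ATPase, -0.17 ± 0.29 (SD, n = 3 each). AHSA1 probe 2, with no dye swap, averaged 0.41 over 2 samples. The means of the AHSA1 probes thus differed in sign, but on the 2 arrays where both had a value both were above 0. BAG5, a BAG domain protein, was between 0.09 and 0.37 in samples A and B and between -0.71 and -0.09 in sample C. BAG5 thus had opposite signs in sample C and in the other samples, but 6 of its 7 values were above the median of their array. HSF1, the regulator itself, had -0.33 in sample A and 0.26 in sample C and no other value.

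Among the other J proteins, DNAJC6, which uncoats clathrin vesicles, averaged 0.11 ± 0.12 and DNAJC9, a histone co-chaperone, -0.05 ± 0.30 (SD, n = 3 each). DNAJB6, a suppressor of protein aggregation, averaged 0.12 by probe 1 and -0.22 ± 0.26 by probe 2 (SD, n = 3 for probe 2). Of the small heat shock proteins outside the inducible class, 1 of 6 probes had values, that of HSPB8, with 0.22 in sample A and -0.35 in sample B.

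Compared by class, the inducible members had a median of 0.24 over 6 probes with values in at least 2 samples, the constitutive ones -0.06 over 6, the mitochondrial ones -0.39 over 3 and the chaperonin -0.05 over 11, beside a median of -0.09 over all 5688 probes. The inducible median was 0.49 in sample A, 0.16 in B and 0.01 in C, so it was highest in sample A. The constitutive median was 0.08 in sample A, -0.45 in B and 0.03 in C, and the chaperonin median 0.0042, -0.21 and 0.07. The mitochondrial median was 0.09 in sample A, -0.74 in B and -0.11 in C, and over samples it was -0.14 without sample B. In sample B, DNAJA3 and DNAJC11 probe 2 had a value on the dye swap only, so the median of B is not dye-balanced. HSPE1, with both orientations in B, was at -0.04. The differences between classes were not tested, since the members were chosen with earlier results known and share their arrays.

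**Figure D2:**
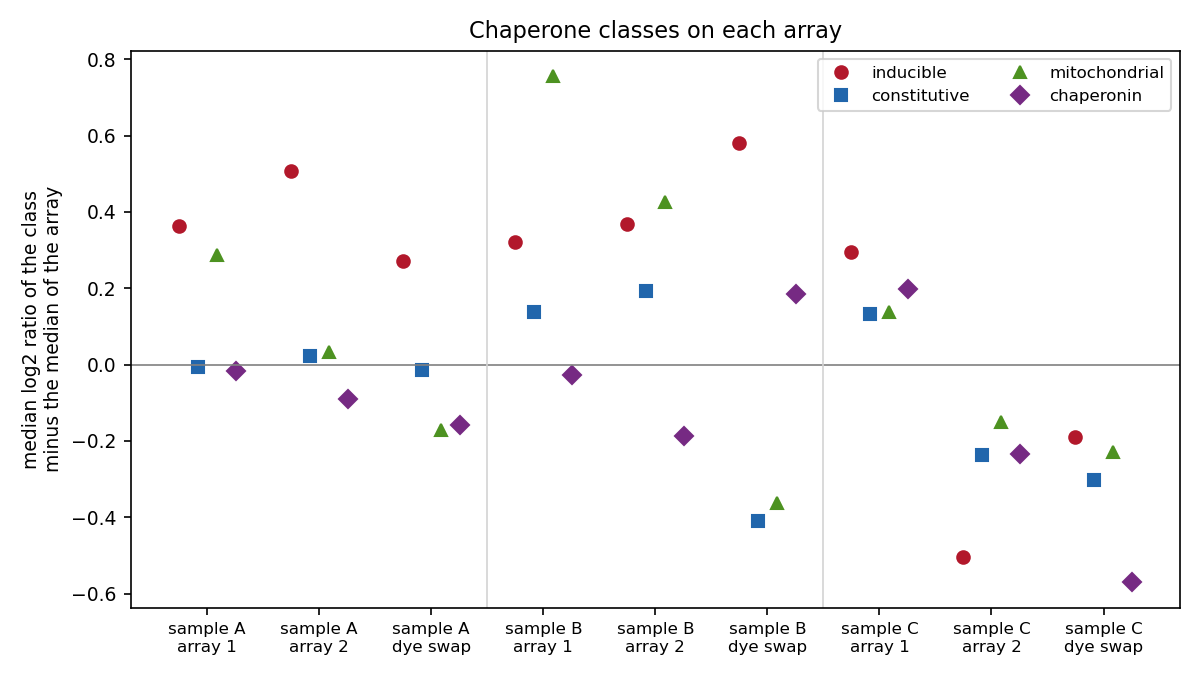
Median log2 ratio of exposed over non-exposed cells of the inducible, constitutive, mitochondrial and chaperonin members on each array, relative to the median of all probes on that array. The inducible members lie between 0.27 and 0.58 above the array median on the 7 arrays of samples A and B and the first of sample C, and at -0.51 and -0.19 on the last 2 arrays of sample C.

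Set against the median of the same array, 33 of the 38 inducible values were higher (86.8%), and 33 of 34 without the second array of sample C. Among constitutive values 51.2% were higher (55.6% without that array), among mitochondrial ones 50% (55%) and among chaperonin ones 42.2% (46.4%). Among the values of co-chaperones and HSF factors 65.6% were higher (70% without it) and among those of the other J proteins 62.1% (66.7%). Of the values of all members, 149 of 256 were higher (58.2%), and 63.3% without the second array of sample C. On that array 4 of 27 members were higher, against 36 of 43 on the first array of the same sample. Among probes with a value on at least 6 arrays, 86.1% of the values of 5 inducible probes and 56.1% of those of 26 members were higher, against 47.0% for all such probes. Without the second array of sample C these shares were 96.9%, 63.4% and 50.6%. These shares describe the arrays and carry no test, and values of 1 gene or 1 array are not independent.

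Members were also read by dye orientation. Of 33 members with a value in both orientations, 8 were above 0 in both, 11 below in both, 11 above with exposed RNA in Cy5 and below in the turned dye swaps, and 3 the reverse. Opposite signs were thus found for 42.4% of these members, against 49.8% of the 3748 probes with a value in both. The members' median was 0.04 for the Cy5 orientation and -0.15 for the dye swaps, where all these probes had -0.04 and -0.24. HSPA4 averaged -0.08 in the first orientation and -0.74 in the dye swaps, and DNAJC7 0.04 and -0.55. HSPH1 probe 1 averaged 0.23 and 0.54, HSPH1 probe 2 0.34 and 0.20, and BAG3 0.19 and 0.09, so these kept their sign. HSPB1, also inducible, did not, with 0.08 and -0.38. The dye swap mean of HSPH1 probe 2 rests on 1 array, and BAG3 read 0.24, 0 and 0.02 on the dye swaps of samples A, B and C. The inducible DNAJB1 and HSP90AA2 had no value on a dye swap. In a limma fit of the 9 arrays with a dye term, 43 of 570 probes (7.54%) had a dye effect at an adjusted p under 0.05 and none of the 4 tested members did, the smallest adjusted p being 0.079 for HSPA4, whose dye effect was 0.33.

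**Figure D3:**
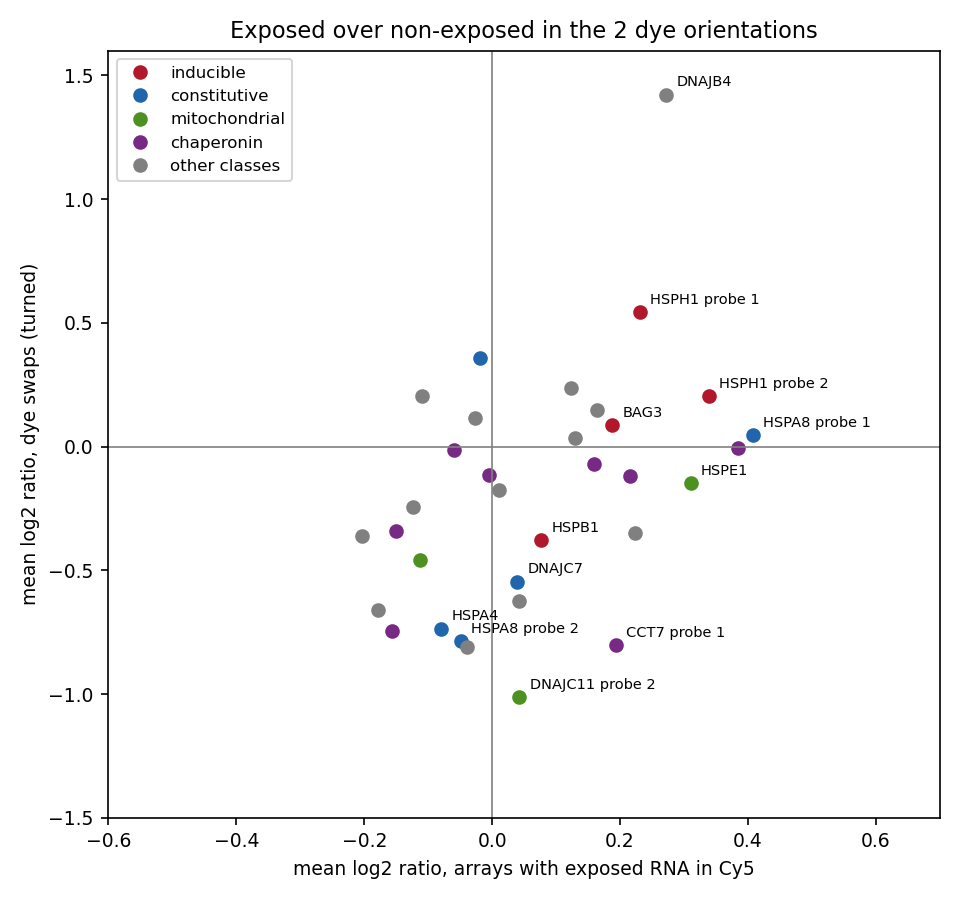
Mean log2 ratio of exposed over non-exposed cells on the arrays where exposed RNA carried Cy5 (horizontal) against the mean of the turned dye swaps (vertical), 1 point for each of 33 members. Points to the lower right of the origin, 11 of them, are members above 0 in the first orientation and below it in the dye swaps.

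Where a gene had a pair of probes, both could be read on the same array. For 9 genes there were 34 such pairs of values, of which 22 had the same sign and 12 opposite signs. The HSPH1 probes had the same sign on 5 of 6 arrays, with a median difference of 0.10. The HSPA8 probes had opposite signs on 3 of 6 arrays and a median difference of 0.53, and the DNAJB6 probes on 3 of 4. The largest difference, 2.81, was that of CCT7 on the first array of sample C. Between the 2 arrays of one sample with the same dyes, members differed by a median of 0.19 in sample A, 0.28 in B and 0.31 in C, which was 0.23, 0.29 and 0.33 over all probes.

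**Figure D4:**
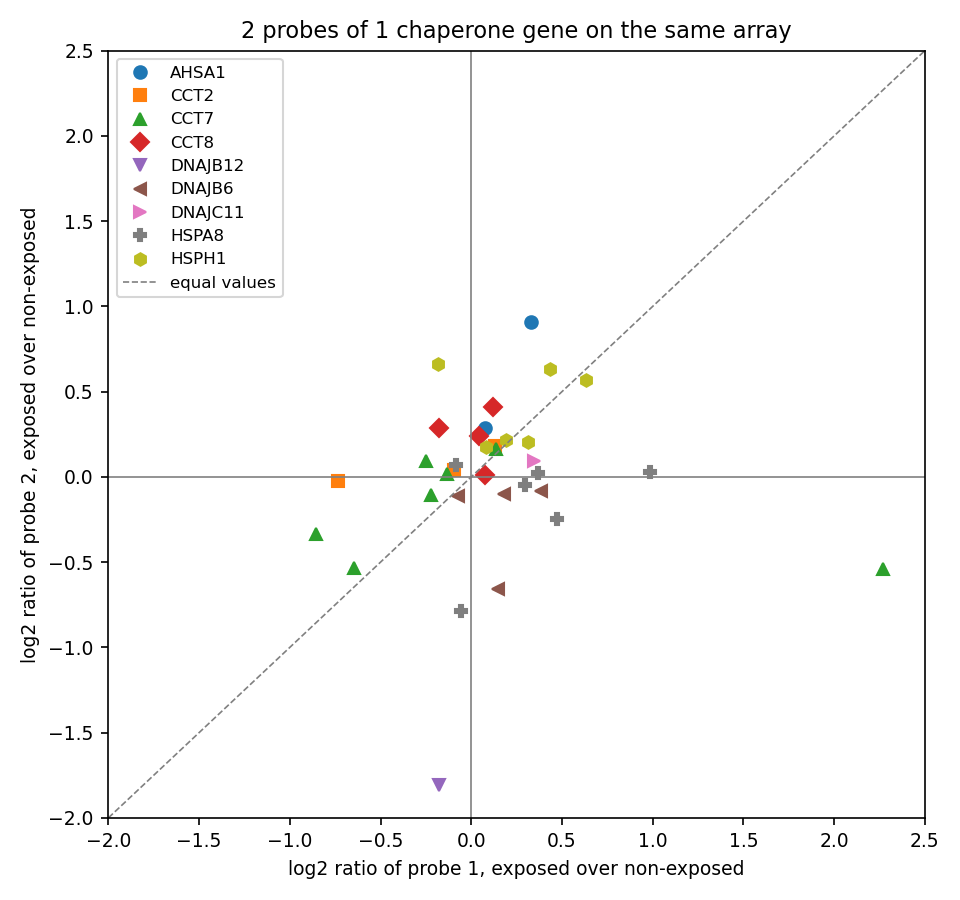
Log2 ratio of exposed over non-exposed cells of 2 probes of the same gene on the same array, for 9 genes and 34 pairs of values. The 12 points to the upper left and lower right of the origin had opposite signs, and the pair of CCT7 on the first array of sample C, at 2.27 and -0.54, lies farthest from the diagonal.

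Of a list of 36 further protein-folding genes that the symbols above leave out (relatives of the families under other names, such as HYOU1, TRAP1 and CRYAB, and others such as the protein disulfide isomerases), 28 had probes, 32 in all. CANX, a lectin chaperone of the endoplasmic reticulum, was the only one in the first fit, with 0.27 and an adjusted p of 0.29 (limma). Of 16 in the fit of 5688 probes none passed by limma, at a median of -0.15.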

How the data were processed

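RNA of exposed and non-exposed HaCaT cells was hybridized on 9 arrays with 2 colours, 3 for each biological sample. The authors scanned the arrays, normalized them in ScanArray Express by a method not given in the sources used here, and deposited for each probe the log2 of Cy5 over Cy3 on each array. The table names neither scale nor direction. The log2 scale was inferred from the values, and the direction was set by the labelled dyes. Probe genes came from GEO's platform annotation; 77 of the 78 member symbols were current in RefSeq. The deposited medians were kept. A sample's value was the average of its Cy5 orientation (mean of the arrays) and its turned dye swap. An intercept was fitted to these values in limma 3.58.1 under R 4.3.3 ( eBayes, two-sided, Benjamini-Hochberg over all probes fitted, threshold 0.05), in place of the SAM named in the study's methods, over the 570 probes with both orientations in 3 samples and over the 5688 with a value in at least 2 samples. The standard error in the first fit was 0.15 for all probes. The dye effect was fitted on 9 arrays with the sample as a random block. The scripts were tested on simulated arrays. All members in the first fit were named, then those with values on at least 6 arrays; the remaining members given values (such as FKBP4, DNAJC10, HSF1, AHSA1 probe 2 and the prefoldins) were chosen after their values were seen. The members, classes and lists were chosen with earlier results of these data known. Alternatives were single orientations, unturned swaps, plain means, other models, centring, quantile normalization and leaving out samples or an array.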

Additional observations from a re-analysis of the deposited data

Results flagged for a closer look

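Among the 6 arrays of the Cy5 orientation, 2 of the 27 sets of member values checked had 1 array far from the others, where chance gives about 1 in 20. CCT7 probe 1 read 2.27 on the first array of sample C, against -0.64 to 0.14 on the other 5. DNAJB6 probe 2 read -0.85 on the second array of sample B, against -0.11 to 0.08 on the other 5.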

How the results depend on the processing

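None of the tested members passed under any alternative, with smallest adjusted p between 0.061 (without the second array of sample C, chosen after seeing the data) and 0.88 (limma). With the dye swaps left unturned, the median of the 4 tested members was 0.26 in place of -0.06, HSPA4 was at 0.33 and DNAJC7 at 0.29. On Cy5 arrays alone DNAJC7 was at 0.040. Leaving out 1 biological sample gave medians from -0.21 to 0.02. Of 22 other named members, 5 turned sign when 1 sample or another was left out, 6 on Cy5 arrays alone and 14 with the swaps unturned. Without the second array of sample C, 2 turned sign, DNAJA2 to -0.02 and CCT2 probe 2 to 0.0038, and CCT7 probe 2 moved to -0.34. The inducible median was above 0 in every setting run with the swaps turned, 0.11 without sample A to 0.34 without sample C. With the swaps unturned it was 0.18, but that setting does not estimate the effect of exposure. DNAJB1 and HSP90AA2 had no dye swap, so turning leaves them unchanged and their values are not dye-balanced. The mitochondrial median was 0.04 on Cy5 arrays alone and -0.46 on the dye swaps. Causes were not tested. The requirement of values in at least 2 samples was the basis of the class medians, since no mitochondrial or chaperonin probe was in the first fit. Each ratio sets exposed against non-exposed RNA on the same array, so the comparison is made within arrays. The array titles do not say whether each sample had its own non-exposed culture.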
